A study of Rattus norvegicus with 8 samples.

Results

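Cells make cholesterol from acetyl-CoA by a long chain of enzymes, and 8 genes of that chain and its control were followed here in the rat hippocampus: Hmgcs1, Idi1, Fdps, Fdft1, Sqle, Lss, Cyp51 and Insig1. They were taken by symbol as named members of the sterol pathway, with every transcript listed under each symbol, which gave 11 of the 16266 transcripts in the table and 8 of its 13272 gene symbols. Of the 8, 7 encode enzymes and Insig1 a regulator, and none takes up cholesterol, so genes of uptake are given from a list further on. RNAseq had been carried out on whole hippocampi of 8 rats, each adrenalectomized so that its own corticosterone was removed, with a jugular cannula. The vehicle group, 4 rats, received saline at 0.45%, and the CORT group, 4 rats, received corticosterone-2-hydroxypropyl-β-cyclodextrin at 0.75 mg/mL in that saline, each as a 30 min infusion from zeitgeber time (ZT) 2. The vehicle is given as saline alone, so only the CORT group received the cyclodextrin. Its part in any difference between the groups cannot be told apart from that of corticosterone. Both groups had drunk corticosterone in saline after surgery until 12 h before the experiment. The labels give Sprague-Dawley rats of 3 to 4 months and ZT 2, whereas the methods of the study name male Lister hooded rats of 9 to 11 wk and collection 2 h after the infusion began, at ZT 4. Levels are given as FPKM, read fragments per unit of transcript length and of sequencing, of which there is 1 value for each group. No value for a single rat was used, so the spread between rats is unknown, no difference below has an error or a test, and the depth behind a value is unknown.

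Neurons, astrocytes and oligodendrocytes make their cholesterol locally, because lipoproteins of the blood do not cross the blood–brain barrier, and most of the brain's cholesterol lies in myelin. When sterol in the endoplasmic reticulum is low, the SCAP protein carries the transcription factors SREBP1 and SREBP2 to the Golgi, where proteases release them to switch on genes of synthesis and uptake. When sterol is plentiful, INSIG proteins hold SCAP back. NF-Y, which binds the CCAAT box, is a known partner of SREBP at these promoters. The question the experiment addresses is which hippocampal transcripts respond to an acute corticosterone infusion.

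The promoter sequences of 4 members are shown because a CCAAT box is a feature that most of these genes shared and that played no part in choosing them. The set of RefSeq promoter sequences used here, of the GRCr8 assembly, held 6 of the 8 members. Sqle and Fdft1 were not in that set. For the other members only the first sequence listed under each symbol was read, so any further annotated start was not looked at. Each sequence is the 250 bases before the annotated start, read 5′ to 3′ on the strand of the gene, with CCAAT or its reverse complement ATTGG in capitals. They lie at chr2:53382054-53382303 on the plus strand for Hmgcs1, chr17:66547525-66547774 on the minus strand for Idi1, chr4:8057770-8058019 on the minus strand for Insig1 and chr20:12118231-12118480 on the minus strand for Lss. The first 3 had the lowest log2 ratios among the members, and Lss had a leading transcript that was higher in the CORT group.
Hmgcs1: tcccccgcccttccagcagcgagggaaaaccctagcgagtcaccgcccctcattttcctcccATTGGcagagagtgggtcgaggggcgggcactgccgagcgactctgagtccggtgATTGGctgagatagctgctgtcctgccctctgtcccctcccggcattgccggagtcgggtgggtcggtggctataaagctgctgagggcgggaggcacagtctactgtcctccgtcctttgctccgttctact
Idi1: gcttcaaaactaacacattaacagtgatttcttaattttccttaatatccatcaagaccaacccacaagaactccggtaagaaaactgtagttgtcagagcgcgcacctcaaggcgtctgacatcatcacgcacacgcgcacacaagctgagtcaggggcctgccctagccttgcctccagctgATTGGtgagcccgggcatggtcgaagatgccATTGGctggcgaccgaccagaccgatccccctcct
Insig1: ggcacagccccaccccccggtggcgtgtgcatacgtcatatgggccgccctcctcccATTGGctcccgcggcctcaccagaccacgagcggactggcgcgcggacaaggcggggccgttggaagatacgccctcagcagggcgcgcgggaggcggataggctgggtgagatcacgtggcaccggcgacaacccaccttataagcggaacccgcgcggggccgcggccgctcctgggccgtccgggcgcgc
Lss: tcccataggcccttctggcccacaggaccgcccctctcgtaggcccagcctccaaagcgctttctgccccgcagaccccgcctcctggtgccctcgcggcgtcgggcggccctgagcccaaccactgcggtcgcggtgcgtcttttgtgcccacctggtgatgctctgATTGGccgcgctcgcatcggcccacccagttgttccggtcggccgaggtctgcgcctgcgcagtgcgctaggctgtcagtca

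A CCAAT box on either strand was found in the same window in 5 of the 6 members, the 4 shown and Fdps, and not in Cyp51. Of 33365 RefSeq promoters, 34.0% hold these letters in that window. Hmgcs1, Idi1 and Fdps each held 2 copies, whereas Insig1 and Lss held 1. In Hmgcs1 they began 188 and 133 bases before the start, and in Idi1 66 and 35 bases before it. The letters CACCCCAC, a core of the sterol regulatory element bound by SREBP, were found in none of the 6 windows and in 2.32% of all promoters. TGTTCT, a single arm of the glucocorticoid response element, was found in none of the 6 and in 17.5% of all promoters. The palindrome of both arms, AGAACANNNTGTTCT, was likewise found in none and in 0.0120% of all. These matches describe letters on either strand in short windows, the motifs did not overlap in the members, and neither a match nor its absence shows where a factor binds.

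The level of 9 of the 11 transcripts was lower in the CORT group than in the vehicle group, and that of 2 was higher. The changes were small. On the log2 scale the CORT over vehicle ratio ran from -0.24 to 0.18, with a median of -0.16. The median over the 15434 transcripts with a mean of at least 1 FPKM was 0.02, with quartiles of -0.10 and 0.13, and 44.4% of them were lower in the CORT group. None of the 11 transcripts was at least 1.2-fold lower or higher, where 11.7% of those 15434 transcripts were lower and 11.3% higher by that much. At a threshold of 1.1-fold, 7 of the 11 were lower and 2 higher, against 21.0% lower and 24.4% higher of all. Low transcripts scatter more, so the same shares were taken over the 10101 transcripts whose mean FPKM lay between 4.92 and 135, as the members' did. There, 6.22% were at least 1.2-fold lower and 7.83% higher, and 14.5% were at least 1.1-fold lower and 21.7% higher. The median there was 0.03.

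**Figure D1:**
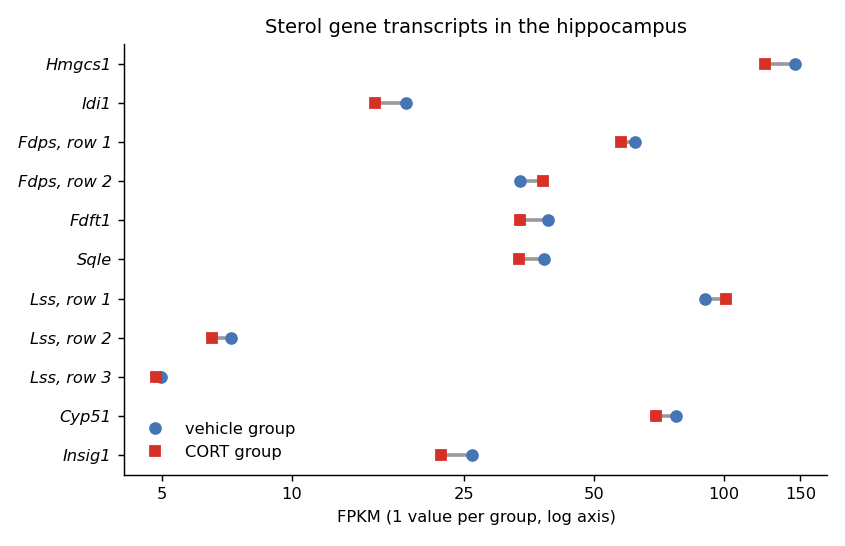
FPKM of each of the 11 sterol gene transcripts on a log axis, with 1 circle for the vehicle group and 1 square for the CORT group, joined by a line; Fdps and Lss have several rows, numbered by mean level. Each single-row gene has its CORT square to the left of its vehicle circle, while row 2 of Fdps and row 1 of Lss lie the other way.

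The members fall into 2 sets by how they are listed. Of the 8 genes, 6 have 1 transcript, and each of these 6 was lower in the CORT group, with log2 ratios between -0.24 and -0.16. Fdps and Lss have several transcripts each, and these went in both directions. With the FPKM of the transcripts of a gene summed, the log2 ratio was 0.00 for Fdps and 0.13 for Lss, so neither was lower as a whole gene.

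Hmgcs1 encodes the cytosolic HMG-CoA synthase, which makes the substrate of the rate-limiting reductase. Its transcript ENSRNOT00000023554.6, at chr2:52431601-52445055 of rn6, the build of all loci given for transcripts, was at 146 FPKM after vehicle and 124 FPKM after CORT, a log2 ratio of -0.23. It was the most abundant of the 8 genes in both groups, above 96.3% of the transcripts of at least 1 FPKM in the vehicle group. Its difference of -21.9 FPKM was the largest in FPKM among the 11 transcripts, although its ratio resembled those of genes expressed at far lower levels.

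Idi1 encodes the isopentenyl-diphosphate isomerase, which interconverts the building blocks of all isoprenoids. Its level was 18.4 FPKM after vehicle and 15.6 FPKM after CORT, a log2 ratio of -0.24. It was the least abundant of the 8 genes. The table places Idi1 in a locus, chr17:57976268-58050992, that it shares with Wdr37, a neighbour of another family. Wdr37 was at 20.0 FPKM after vehicle and 20.8 FPKM after CORT, a log2 ratio of 0.06, so the lower value was not seen for the other gene of that locus.

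Fdps encodes the farnesyl diphosphate synthase, at the point where the route to sterols parts from those to other isoprenoids. Its leading transcript, ENSRNOT00000065065.2 at chr2:188392858-188413219, was at 62.0 FPKM after vehicle and 57.8 FPKM after CORT, a log2 ratio of -0.10. Its other transcript, ENSRNOT00000033917.6, was at 33.7 FPKM after vehicle and 38.1 FPKM after CORT, a log2 ratio of 0.18. The leading transcript thus made up 64.8% of the summed FPKM in the vehicle group and 60.3% in the CORT group, while the sum itself was 95.8 and 95.9 FPKM. Both transcripts share a locus, and how fragments were divided between them is an estimate of the authors' software.

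Fdft1 encodes the squalene synthase, the first step committed to sterols, and Sqle the squalene epoxidase, a flux-controlling step that needs oxygen. Fdft1, at chr15:46339249-46367302, was at 39.1 FPKM after vehicle and 33.6 FPKM after CORT, a log2 ratio of -0.22. Sqle, at chr7:99609191-99624732, was at 38.3 FPKM after vehicle and 33.5 FPKM after CORT, a log2 ratio of -0.19. These consecutive enzymes were the closest pair in level, with Fdft1 1.02-fold above Sqle in the vehicle group, and without a spread between rats their order cannot be told from a tie.

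Lss encodes the lanosterol synthase, which closes the squalene chain into the sterol ring system. Its leading transcript, ENSRNOT00000085270.1 at chr20:12842884-12870497, was at 90.3 FPKM after vehicle and 101 FPKM after CORT, a log2 ratio of 0.16. The next, ENSRNOT00000081903.1, was at 7.21 and 6.52 FPKM, a log2 ratio of -0.14. The last, ENSRNOT00000078412.1, was at 4.98 and 4.86 FPKM, a log2 ratio of -0.04. The leading transcript held 88.1% of the summed FPKM after vehicle and 89.9% after CORT, so the direction of the gene is that of this transcript, and Lss was the only one of the 8 genes whose leading transcript was higher in the CORT group.

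Cyp51 encodes the lanosterol demethylase, a cytochrome P450 that begins the trimming of lanosterol. At chr4:27175243-27194018, it was at 77.2 FPKM after vehicle and 69.4 FPKM after CORT, a log2 ratio of -0.16. This was the smallest change of the 6 genes with 1 transcript.

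Insig1 is not an enzyme but an inhibitor of SREBP release, and it is itself a known target of SREBP. At chr4:342302-350515, it was at 26.1 FPKM after vehicle and 22.1 FPKM after CORT. Its log2 ratio of -0.24 was the lowest of the 11 transcripts, with 7.16% of the 10101 transcripts of like level at or below it. For Cyp51, the nearest to 0 of the 6 single-transcript genes, that share was 13.0%. The 6 genes thus lay in the lower tail of like transcripts but within the range that many unrelated transcripts covered.

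**Figure D2:**
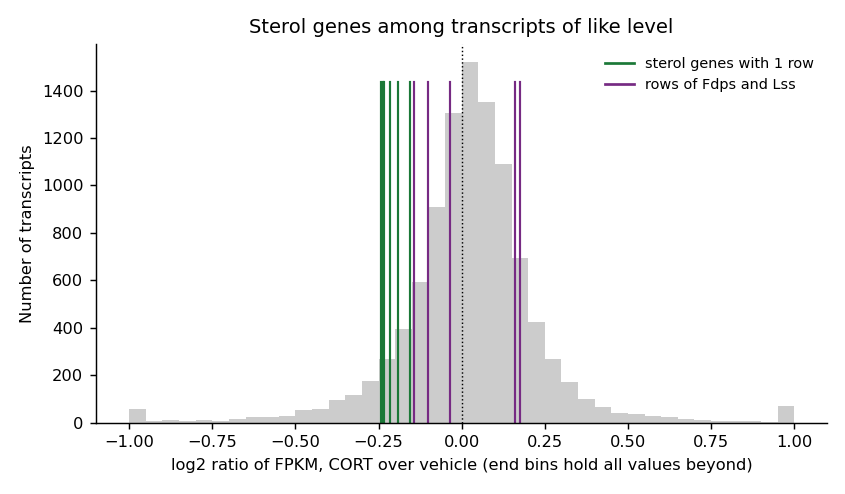
Histogram of the log2 ratio of FPKM, CORT over vehicle, for the 10101 transcripts whose mean FPKM lies in the range of the sterol genes, in bins of the log2 ratio, with a vertical line for each sterol transcript. The 6 genes with 1 row lie together between -0.24 and -0.16, left of the peak, and the rows of Fdps and Lss spread from -0.14 to 0.18.

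By summed FPKM, the order of the 8 genes was the same in both groups: Hmgcs1, Lss, Fdps, Cyp51, Fdft1, Sqle, Insig1 and Idi1. The largest step between neighbours in the vehicle group was 1.98-fold, from Cyp51 to Fdft1. Lss was 1.07-fold above Fdps, at 102 and 95.8 FPKM, and this pair stood further apart in the CORT group, at 112 and 95.9 FPKM.

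The other genes of the pathway were read from lists by role, each gene read from its leading transcript, the most abundant over both groups. Over the 12795 gene symbols of at least 1 FPKM read in this way, the median log2 ratio was 0.02, 45.1% were below 0, and 10.7% were at least 1.2-fold lower and 7.91% higher. At 1.1-fold these shares were 20.0% and 21.0%. The lists of synthesis steps, which include isoprenoid steps such as that of Ggps1, held 15 other enzymes. Of these, 12 were lower in the CORT group and 3 were higher, with a median log2 ratio of -0.16. At least 1.1-fold lower were 8 of the 15, and none was higher by as much, whereas 1 was at least 1.2-fold lower. In the mevalonate and isoprenoid steps, Mvd, the diphosphomevalonate decarboxylase, was at 20.2 FPKM after vehicle and 17.7 FPKM after CORT, a log2 ratio of -0.20. Mvk, the mevalonate kinase, went the other way, at 14.0 and 15.2 FPKM, a log2 ratio of 0.12. Past squalene, Lbr, a lamin receptor that also has sterol reductase activity, had the lowest ratio of the list, -0.40, at 4.18 and 3.16 FPKM. Tm7sf2, which carries out the same reduction, was at 11.0 and 9.42 FPKM, a log2 ratio of -0.23. Sc5d, a sterol desaturase that acts late in the chain, was at 34.2 FPKM in each group, a ratio of 0.00.

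The genes that control SREBP did not share one direction. Of the 7, 3 were lower and 4 higher, and the median log2 ratio was 0.04. Srebf1, which encodes SREBP1, was at 24.4 FPKM after vehicle and 19.6 FPKM after CORT, a log2 ratio of -0.32. Scap, the escort of SREBP, was at 32.6 and 37.7 FPKM, a log2 ratio of 0.21. Insig2, the relative of Insig1, was at 22.4 and 25.3 FPKM, a ratio of 0.17 against the -0.24 of Insig1. The site-2 protease gene Mbtps2 had a ratio of 0.14.

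Of 12 listed genes of sterol uptake and transport inside the cell, 11 had a transcript in the table, 7 lower and 4 higher, with a median log2 ratio of -0.11. At least 1.2-fold lower were 3 of the 11, or 2 with a pseudocount of 1 FPKM or with transcripts summed, and 4 after centring on the median of all transcripts. Mylip, a ubiquitin ligase that removes lipoprotein receptors, was at 13.3 FPKM after vehicle and 9.35 FPKM after CORT, a log2 ratio of -0.51. Stard4, a cytosolic sterol carrier, was at 5.71 and 4.67 FPKM, a ratio of -0.29. For Lipa, the lysosomal acid lipase, the leading transcript had a ratio of -0.53, but both its transcripts summed gave 0.00, at 20.5 FPKM in each group. Stard3 and Scarb1, a sterol carrier of late endosomes and a lipoprotein receptor, had ratios of 0.12 each.

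Genes of sterol sensing by LXR, of efflux and of turnover were divided, 6 lower and 5 higher of 11, with a median log2 ratio of 0.00. Nr1h3, which encodes LXRα, was at 2.78 FPKM after vehicle and 1.92 FPKM after CORT, a log2 ratio of -0.53. The efflux pump gene Abca1 was at 6.33 and 5.42 FPKM, a ratio of -0.22. Cyp46a1, the neuronal hydroxylase through which the brain disposes of cholesterol, was at 111 and 130 FPKM, a ratio of 0.22. For the genes of fatty acid synthesis, which SREBP1 controls, 10 of 12 had a transcript in the table, 5 lower and 5 higher, with a median of -0.01. Scd1, a fatty acid desaturase, was at 9.74 and 7.92 FPKM, a ratio of -0.30, whereas Fasn, the fatty acid synthase, was at 39.8 and 40.0 FPKM.

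**Figure D3:**
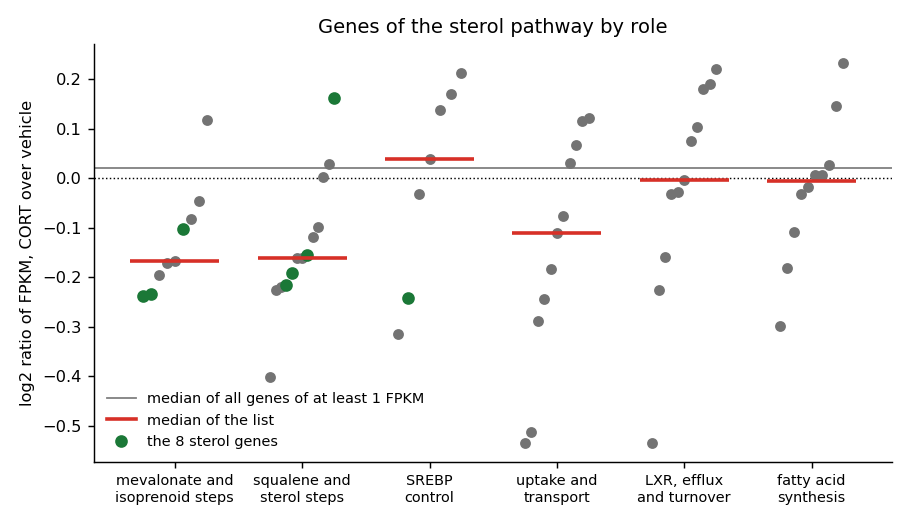
Log2 ratio of FPKM, CORT over vehicle, for the genes of 6 lists, 1 point for each gene by its leading transcript, with the 8 sterol genes in green, a red bar for the median of each list and a grey line for the median of all genes of at least 1 FPKM. Points of both synthesis lists lie mostly below 0, with medians of -0.17 and -0.16, while the lists of SREBP control, efflux and fatty acid synthesis spread to either side of 0.

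Markers of cell types and of a neighbouring tissue are given because glia and neurons differ in how much sterol they make, and some of these lists differed between the groups. Medians are over leading transcripts, as above, whereas sums and the most abundant gene of each list take all transcripts of a gene together. All 10 hippocampal neuron markers were present, 7 higher in the CORT group and 3 lower, with a median log2 ratio of 0.10 and a sum of 3849 and 4072 FPKM. They were led by Snap25, at 1178 and 1155 FPKM. Of 10 oligodendrocyte markers, 9 were lower in the CORT group and 1 was higher, with a median log2 ratio of -0.24. Summed, they were at 7858 FPKM after vehicle and 6475 FPKM after CORT, with Mbp, a myelin protein gene, the most abundant at 4162 and 3290 FPKM over its 4 transcripts. Of 10 astrocyte markers, 5 were lower and 5 higher, with a median of -0.03, led by S100b at 1066 and 1095 FPKM and summing to 3949 and 3577 FPKM. Gfap, the intermediate filament of astrocytes, was at 970 and 517 FPKM, and the other 9 markers summed to 2979 and 3061 FPKM. Gfap, Aqp4 and Aldh1l1 were the 3 astrocyte markers at least 1.2-fold lower, with log2 ratios of -0.91, -0.51 and -0.67 for their leading transcripts, although the transcripts of Aldh1l1 summed gave -0.05. Of 10 microglial markers, 9 were lower and 1 higher, with a median of -0.23, and their sum was 355 and 306 FPKM, led by C1qa. The higher one was Tmem119, at 5.72 FPKM after vehicle and 11.2 FPKM after CORT, a log2 ratio of 0.96. Of the 8 of 10 endothelial markers with a transcript, 7 were lower, with a median of -0.47 and a sum of 109 and 89.3 FPKM, led by Cldn5. The 9 of 10 choroid plexus markers present had a median of -0.05 and were led by Ttr, at 6605 and 6598 FPKM. The pineal gland lies outside the hippocampus. Of 10 pineal markers, 6 had a transcript and each was lower, with a median of -2.95, the largest shift of any list here, and a sum of 23.7 and 8.57 FPKM. Rom1, the most abundant, was at 7.33 and 6.92 FPKM, and the other 5 summed to 16.4 and 1.65 FPKM. Tph1, an enzyme of serotonin synthesis, was at 5.17 and 0.102 FPKM. The part of any of these shifts in the sterol values was not tested, and fewer cells of a type cannot be told apart from less RNA per cell in whole tissue.

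The 10 listed glucocorticoid target genes were each higher in the CORT group, with a median log2 ratio of 0.93. They were chosen with earlier results of these data known. The study itself named Per1, Sgk1, Tsc22d3, Klf9 and Klf15 as under corticosteroid control from this experiment. The direction of the list is therefore no independent check of the labels. Sgk1, a kinase gene, was at 28.5 FPKM after vehicle and 70.4 FPKM after CORT. The sterol transcripts, at -0.24 to 0.18, moved far less.

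**Figure D4:**
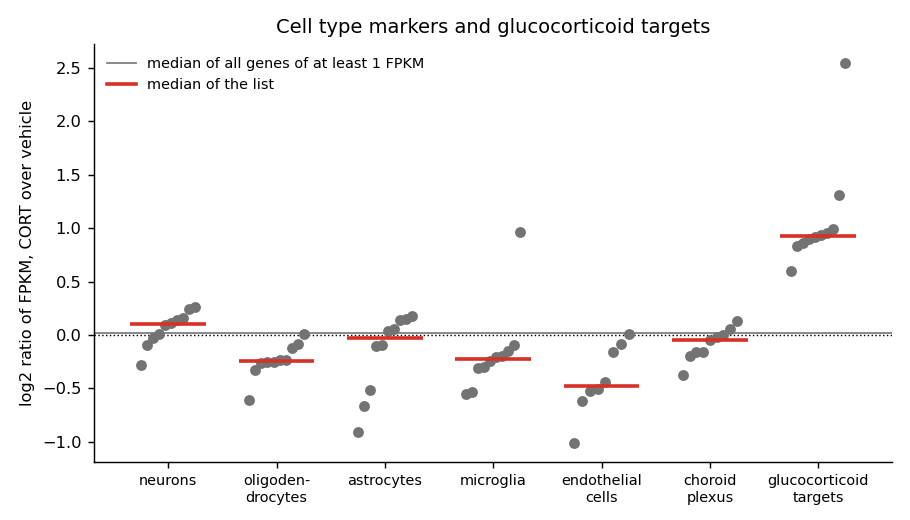
Log2 ratio of FPKM, CORT over vehicle, for marker genes of 6 cell types and for 10 glucocorticoid targets, 1 point for each gene, with a red bar for the median of each list and a grey line for the median of all genes of at least 1 FPKM. Oligodendrocyte, microglial and endothelial markers lie mostly below 0 (medians -0.24, -0.23 and -0.47) and each of the glucocorticoid targets lies above it, and the pineal markers, with a median of -2.95, are not drawn because of their wider scale.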

How the data were processed

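RNAseq of whole hippocampus was analysed at the level of Ensembl transcripts. The authors' deposited FPKM values hold 1 value per group of 4 rats and were made by them with TopHat2 2.0.10, Cufflinks and Cuffdiff 2.2.0 on rn6, with geometric normalization, corrections for multi-reads, sequence bias and effective length, and removal of transcripts with under 10 alignments (TruSeq stranded libraries). Whether strand was used in counting is not given in the sources used here. The fold changes, test statistics, p-values and q-values in the same table, which come from the authors' comparison, were not used. The log2 ratio of the CORT over the vehicle FPKM was computed without a pseudocount, and thresholds of 1.2-fold and 1.1-fold were used as descriptions. With group values only, no test was run and no error, depth or interval can be given. Locus starts were raised by 1 to count from 1, and loci span all transcripts that overlap. Functions were checked on simulated ratios. The members and lists were chosen with earlier results of these data known. All 8 members are named; of the other lists, genes at the extremes of each and the most abundant marker, though not every such gene is reported here. Fasn, Gfap, Aqp4, Aldh1l1, Tmem119, Tph1, Sgk1 and Wdr37 were named after their values were seen. Python 3.11.15, numpy 2.4.6, pandas 2.3.3 and matplotlib 3.10.9 were used.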

Additional observations from a re-analysis of the deposited data

How the results depend on the processing

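With a threshold of 1.1-fold in place of 1.2-fold, 7 sterol transcripts were lower and 2 higher, where none was in either direction at 1.2-fold. Centring on the median of all transcripts, which lowers each log2 ratio by 0.02, put 1 sterol transcript past 1.2-fold lower, and raised the count of SREBP control genes lower by that much from 1 to 2. The median over the sterol transcripts stayed within 0.1 of its value under each of the pseudocounts of 1 and 0.1 FPKM, centring and summing. Summing moved Fdps by more than 0.1, from the -0.10 of its leading transcript to 0.00. The share of all transcripts past 1.2-fold was 6.15% higher and 4.31% lower with a mean of at least 10 FPKM, and 6.22% lower in the range of the sterol genes. No paired analysis was possible because the table holds 1 value per group, and no replicate could be left out for the same reason. A library that stands apart from its group could not be looked for.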
